A study of Mus musculus with 8 samples.

Results

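The SOX genes other than Sox2 were followed in mouse embryonic stem cells across a Rex-1 knockout and the withdrawal of leukemia inhibitory factor (LIF), the cytokine that keeps these cells undifferentiated. The members were 8 named genes, Sox1, Sox3, Sox4, Sox11, Sox12, Sox13, Sox15 and Sox18, with every probe set whose annotation gave one of them as its only gene symbol. This gave 24 of 45037 probe sets and 8 of 18193 named genes. A probe set is the group of oligonucleotides on an Affymetrix array that reports one transcript. The array holds several for some genes: 8 for Sox4, 6 for Sox11, 3 for Sox12, 2 each for Sox1 and Sox3, and 1 each for Sox13, Sox15 and Sox18. Probe sets of one gene share their target and are not replicates of each other.

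Single-colour arrays were hybridised with total RNA from 4 groups of 2 arrays each. They were Rex-1 knockout cells without LIF, Rex-1 knockout cells with LIF, J1 wild-type cells without LIF and J1 wild-type cells with LIF. J1 is a mouse embryonic stem cell line, it is also the named source of the knockout cells, and all cells grew as monolayers on gelatin in medium with fetal calf serum. The labels do not say how many knockout clones were used or which part of Zfp42, the gene of Rex-1, was deleted. A text shared by all 8 arrays gives 12 hours without LIF, and the growth description given for the knockout cells without LIF lists LIF among the additions. The titles and treatment text were followed. In each group 1 title carries the letter r, whose meaning is not given. The array without it is called the first and the one with it the second. The series text calls them biological replicates, but nothing names separate cultures, so the spread behind each p-value may be technical.

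SOX proteins are transcription factors that bind DNA through a shared HMG box, a domain that bends the helix, and that often act with a partner such as a POU factor. They fall into groups by sequence. Sox1 and Sox3 belong with Sox2 to group B1, which maintains neural progenitors. Sox4, Sox11 and Sox12 form group C, known for neuronal differentiation and for survival of progenitors, Sox13 is in group D, Sox18 is in group F with roles in blood and lymphatic vessels, and Sox15 is the lone member of group G. In embryonic stem cells Sox2 works with Oct4, and Sox15 can also pair with Oct4.

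The promoters of Sox4 and Sox11 are shown because their leading probe sets had similar patterns over the arrays. Both are RefSeq sequences of build GRCm38.p6, from 250 bases before to 50 bases after the start of the gene, on the minus strand. Sox4 lies at chr13:28953650-28953949 and Sox11 at chr12:27342669-27342968. Capitals mark CCAAT, the core of the CCAAT box, or its reverse complement ATTGG.
Sox4: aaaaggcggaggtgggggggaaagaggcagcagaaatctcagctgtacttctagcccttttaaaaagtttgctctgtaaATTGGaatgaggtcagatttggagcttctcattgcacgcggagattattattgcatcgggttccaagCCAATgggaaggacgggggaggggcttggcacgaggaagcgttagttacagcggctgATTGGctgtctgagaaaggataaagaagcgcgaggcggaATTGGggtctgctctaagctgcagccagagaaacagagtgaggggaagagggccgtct
Sox11: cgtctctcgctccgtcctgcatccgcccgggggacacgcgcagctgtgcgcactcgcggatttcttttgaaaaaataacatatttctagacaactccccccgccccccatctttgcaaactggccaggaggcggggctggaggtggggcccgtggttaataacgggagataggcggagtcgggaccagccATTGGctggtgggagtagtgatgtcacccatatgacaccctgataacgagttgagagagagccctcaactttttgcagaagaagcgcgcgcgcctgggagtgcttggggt

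The Sox4 window held 4 matches to CCAAT and the Sox11 window 1. This motif was picked after the sequences were read. It occurs on either strand in 4 of the 6 member promoters listed by RefSeq and in 37.4% of all 32817 promoter windows of this length. Searches on both strands for the YY1 core GCCATNTT, the SOX core ACAAAG, the STAT site TTCNNNGAA and the TATA box TATAAA found no match in these 2 windows. Rex-1 is a relative of YY1, and STAT3 carries the LIF signal. The motifs occur in 6.04%, 18.7%, 8.29% and 13.6% of all promoter windows. Among the 6 member promoters the SOX core was found in 1, that of Sox15, and the STAT site in 1, that of Sox13. The GC content was 52% for Sox4 and 58.7% for Sox11, against a median of 52.7% over all promoters, while Sox12 had 76.7%, Sox13 73.3% and Sox1 70.7%.

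The array medians ran from 114.2 to 143.5 units of signal intensity, and the second knockout-labelled array with LIF had the highest. The 9 embryonic stem cell markers were high on every array, with Pou5f1 between 13.23 and 13.57 and Nanog between 12.30 and 13.24 (log2 signal). Sox2, the group B1 factor outside the members, lay between 13.44 and 13.88. Zfp42, the targeted gene, lay between 14.03 and 14.51 on all 8 arrays, and it was not called by limma (averaged log2 difference of knockout from J1 -0.21, SE 0.16). Its signal therefore goes against the knockout label unless its probe set lies outside the deleted part, which the sources used here do not give. Every direction below refers to the arrays labelled knockout.

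Of the 24 probe sets, 17 had a mean of at least 6 on the log2 scale and 7 lay below it, which is called near background here. All 24 passed the filter on low values. The 7 were both probe sets of Sox1, 2 of Sox4, 1 of Sox11 and 2 of Sox12. Nearest to the limit were Sox3 1450485_at, with a mean of 6.08, and Sox11 1431225_at, with 5.85.

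**Figure D1:**
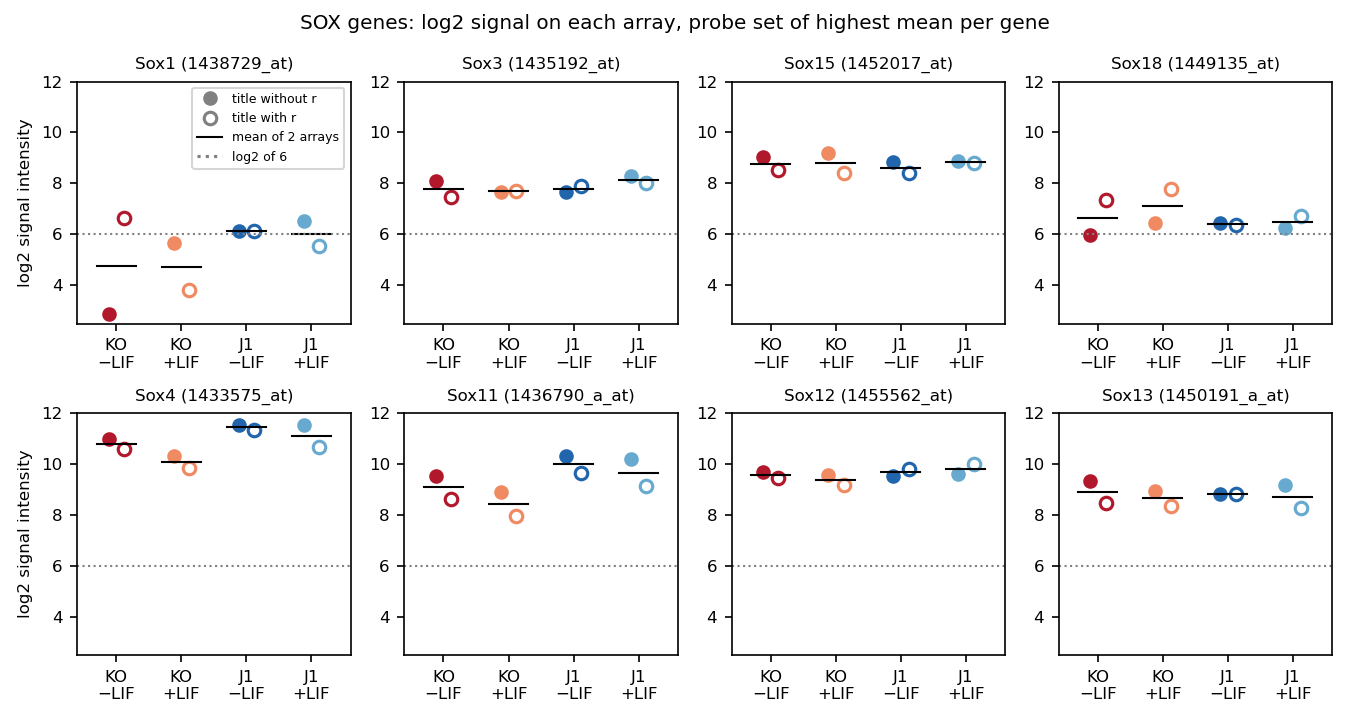
Log2 signal intensity on each array (y) by group (x) for the probe set of highest mean of each SOX gene. Filled points are first arrays, open points second arrays (title with the letter r), bars the mean of 2 arrays, and the dotted line the log2 value of 6. The knockout-labelled Sox4 and Sox11 points with LIF lie below both J1 points with LIF, and the Sox1 points run from 2.87 to 6.63, with both knockout-labelled means below the dotted line.

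limma, fitted over 43439 probe sets, called none of the 24 SOX probe sets at a Benjamini-Hochberg adjusted p under 0.05 in any of 7 comparisons, and it called 0% of all probe sets in each. At an unadjusted p under 0.05 the members numbered 5 of 24 for knockout against J1 with LIF, where 5.02% of all probe sets reached it. They numbered 0 without LIF (3.68% of all) and 7 for the averaged genotype difference (5.27% of all). For LIF withdrawal they numbered 3 in knockout-labelled cells (4.07% of all), 0 in J1 cells (3.61%) and 1 on average (4.02%). For the interaction of line and LIF they numbered 2 (3.55% of all). Of the 7 for the averaged genotype difference, 6 were probe sets of Sox4 or Sox11.

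Sox4, a group C factor, averaged lower in the knockout-labelled arrays at each of its 6 probe sets above background. Its leading probe set, 1433575_at, had log2 signals of 10.98 and 10.57 in knockout-labelled cells without LIF and 10.32 and 9.84 in knockout-labelled cells with LIF. In J1 cells it had 11.55 and 11.35 without LIF and 11.53 and 10.66 with LIF. Both knockout-labelled arrays lay below both J1 arrays within each medium, although the highest knockout-labelled array without LIF exceeded the lowest J1 array with LIF.

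In signal units the Sox4 probe set 1433575_at gave 1770 ± 355 (SD, n = 2) in knockout-labelled cells without LIF, against 2799 ± 270 (SD, n = 2) in J1 cells without LIF. With LIF it gave 1097 ± 256 (SD, n = 2) in knockout-labelled cells, against 2289 ± 942 (SD, n = 2) in J1 cells. The log2 difference, knockout minus J1, was -0.85 (SE 0.27) on average, -0.67 (SE 0.38) without LIF and -1.02 (SE 0.38) with LIF. The averaged difference had an unadjusted p of 0.0220 and an adjusted p of 0.898 by limma. The groups from highest to lowest mean were J1 without LIF, J1 with LIF, knockout without LIF and knockout with LIF. The J1 groups overlapped each other, J1 with LIF overlapped knockout without LIF, and the knockout groups did not overlap each other.

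The other 5 Sox4 probe sets above background had averaged genotype differences from -1.63 (SE 0.62) for 1419156_at to -0.36 (SE 0.23) for 1419157_at, and the median of all 6 was -0.61. Leaving out 1 array at a time gave -2.14 to -1.12 for 1419156_at and -0.85 to -0.17 for 1419155_a_at, nearest 0 without the second knockout-labelled array with LIF for 1419156_at and without the first knockout-labelled array without LIF for 1419155_a_at. The median over all 43439 probe sets was 0.02. Without LIF 5 were lower and 1455867_at differed by 0.08 (SE 0.32). With LIF all 6 were lower, with values from -1.89 to -0.30. The probe set 1455867_at had 5.78 and 6.58 in knockout-labelled cells with LIF, against 7.57 and 7.71 in J1 cells with LIF, a difference of -1.46 (SE 0.32, adjusted p = 0.742 by limma). Without LIF it had 7.12 and 7.32 in knockout-labelled cells and 7.24 and 7.05 in J1 cells. The groups did not overlap with LIF and overlapped without it. The 2 near-background Sox4 probe sets went the other way on average, by 0.92 (SE 0.70) for 1443778_at and 0.25 (SE 1.02) for 1458332_x_at.

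Sox11, the group C factor linked to neuronal maturation, likewise averaged lower at each of its 5 probe sets above background. The leading probe set, 1436790_a_at, had log2 signals of 9.53 and 8.62 in knockout-labelled cells without LIF and 8.89 and 7.94 in knockout-labelled cells with LIF. In J1 cells it had 10.31 and 9.65 without LIF and 10.18 and 9.12 with LIF. Both knockout-labelled arrays lay below both J1 arrays within each medium, and in each group the second array was lower than the first, by 0.66 to 1.07.

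The averaged difference of Sox11 1436790_a_at, knockout minus J1, was -1.07 (SE 0.41, adjusted p = 0.941 by limma). It was -0.90 (SE 0.58) without LIF and -1.24 (SE 0.58) with LIF. In signal units the group means were 568 ± 245 (SD, n = 2) in knockout-labelled cells and 1036 ± 330 (SD, n = 2) in J1 cells, both without LIF. With LIF they were 360 ± 161 (SD, n = 2) in knockout-labelled cells and 859 ± 429 (SD, n = 2) in J1 cells. The means had the same order of groups as Sox4. Neighbouring groups in that order overlapped at every step.

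The remaining Sox11 probe sets above background had averaged genotype differences of -1.0 (SE 0.59) for 1429372_at, -0.75 (SE 0.44) for 1453002_at, -0.73 (SE 0.48) for 1453125_at and -0.48 (SE 0.32) for 1429051_s_at. Single arrays weighed heavily on them. Leaving out 1 array at a time gave -1.51 to -0.49 for 1429372_at, nearest 0 without the second knockout-labelled array without LIF. It gave -1.19 to -0.31 for 1453002_at and -1.12 to -0.34 for 1453125_at, both nearest 0 without the first J1 array with LIF. For 1429051_s_at it gave -0.74 to -0.22, nearest 0 without the first knockout-labelled array with LIF. The suffix _s_at marks a probe set whose probes can also match other transcripts. For 3 of these 4, the second arrays with LIF went the other way: the second knockout-labelled array lay above the second J1 array by 0.45 to 0.69. The near-background probe set 1431225_at had 3.36 and 4.41 in knockout-labelled cells with LIF, against 6.90 and 7.17 in J1 cells with LIF. Its difference of -3.15 (SE 0.59) had the smallest unadjusted p among the members in that comparison, 0.00210, with an adjusted p of 0.660 by limma.

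Without overlap, 8 of the 17 SOX probe sets above background were lower in both knockout-labelled arrays than in both J1 arrays with LIF, against 14.5% of all probe sets. Without LIF the count was also 8 of 17, against 13.4% of all. Of these, 6 with LIF and 8 without LIF belonged to Sox4 or Sox11, so they describe few genes. In the other direction 1 of 17 lay above without overlap in each medium, Sox3 1450485_at. The share of all probe sets was 15.5% with LIF and 15.9% without LIF. These shares include low probe sets, which the 17 leave out. Over all 24 SOX probe sets, 10 lay below with LIF and 8 without LIF. Those above numbered 4 of 24 with LIF, near the share of all probe sets, and 1 of 24 without LIF. No member had all 4 knockout-labelled arrays below all 4 J1 arrays, which 1.74% of all probe sets had.

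**Figure D2:**
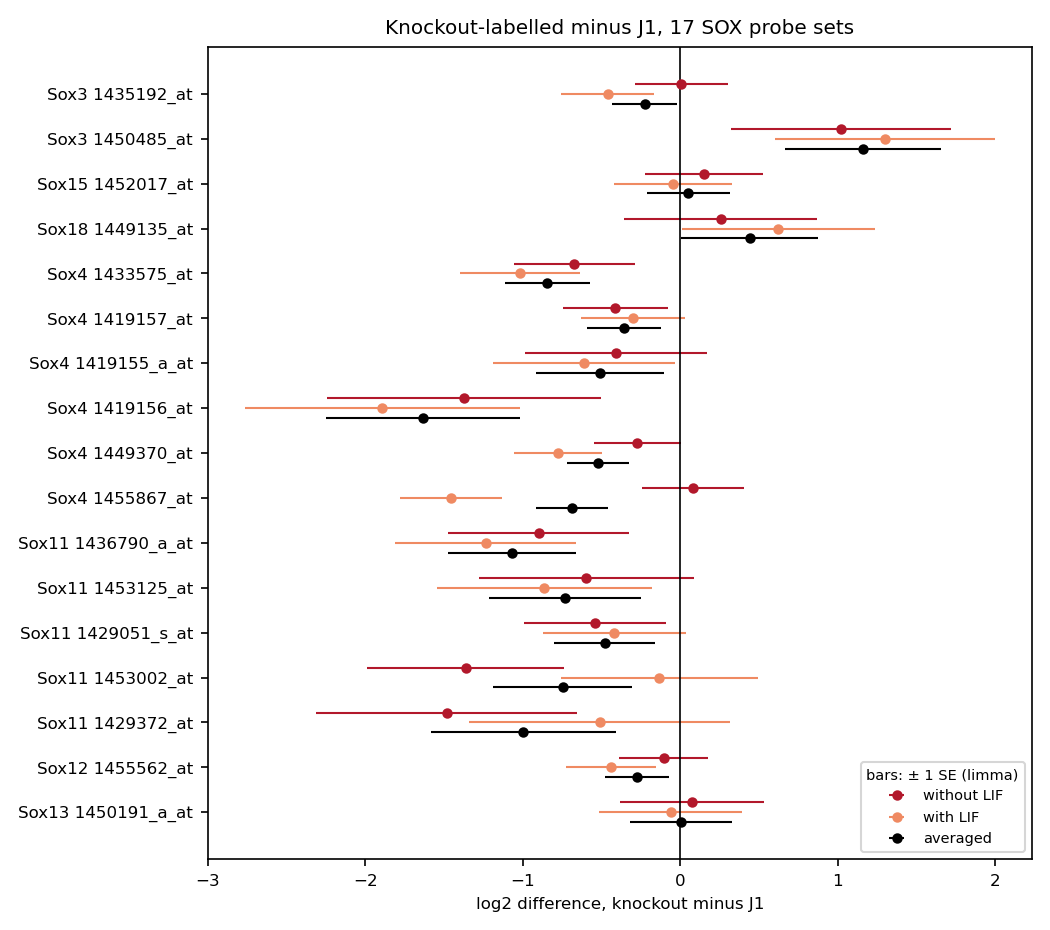
Log2 difference, knockout minus J1 (x), for the 17 SOX probe sets of mean log2 at least 6 (y), without LIF, with LIF and averaged. Points are limma estimates and bars 1 SE to each side. The averaged points of all 6 Sox4 and all 5 Sox11 probe sets lie below 0, and 1 of the 2 Sox3 probe sets lies above it.

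Sox12, also of group C, had a smaller averaged difference than the leading probe sets of Sox4 and Sox11. The genes were not tested against each other. Its probe set above background, 1455562_at, had log2 signals of 9.67 and 9.46 in knockout-labelled cells without LIF and 9.55 and 9.17 in knockout-labelled cells with LIF. In J1 cells it had 9.54 and 9.81 without LIF and 9.59 and 10.02 with LIF. The groups overlapped without LIF, and with LIF the higher knockout-labelled array was 0.04 below the lower J1 array. The averaged difference was -0.27 (SE 0.20, adjusted p = 0.985 by limma). The 2 near-background Sox12 probe sets had averaged differences of -0.92 (SE 0.54) and 0.80 (SE 0.30).

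Among the group B1 genes, Sox1 was near background at both probe sets, with means of 5.41 and 3.82. The higher one, 1438729_at, ran from 2.87 to 6.63 over the 8 arrays, and both extremes were knockout-labelled arrays without LIF. No level difference can be read from it at this signal. Sox3 gave opposite values at its 2 probe sets. The leading one, 1435192_at, had 8.09 and 7.47 in knockout-labelled cells without LIF and 7.68 and 7.69 in knockout-labelled cells with LIF. It had 7.65 and 7.90 in J1 cells without LIF and 8.29 and 8.0 in J1 cells with LIF. Its averaged genotype difference was -0.23 (SE 0.21), with overlap without LIF and none with LIF.

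The other Sox3 probe set, 1450485_at, lay just above the limit of 6 and differed by 1.16 (SE 0.49, adjusted p = 0.960 by limma). It had 6.97 and 7.03 in knockout-labelled cells without LIF and 5.80 and 6.83 in those with LIF. In J1 cells it had 5.28 and 6.68 without LIF and 4.31 and 5.73 with LIF. The knockout-labelled arrays were above the J1 arrays within each medium, so the direction for Sox3 depends on the probe set.

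Sox13, a group D factor, and Sox15, of group G, differed between the lines by less than their standard errors. Sox13 1450191_a_at had 9.32 and 8.48 in knockout-labelled cells without LIF, 8.95 and 8.35 in knockout-labelled cells with LIF, 8.83 and 8.83 in J1 cells without LIF, and 9.17 and 8.26 in J1 cells with LIF. Its averaged difference was 0.01 (SE 0.32). Sox15 1452017_at had 9.03 and 8.52 in knockout-labelled cells without LIF, 9.20 and 8.41 in knockout-labelled cells with LIF, 8.86 and 8.39 in J1 cells without LIF, and 8.89 and 8.81 in J1 cells with LIF. Its averaged difference was 0.05 (SE 0.26). For both genes the groups overlapped in each medium.

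Sox18, the vascular factor of group F, was close to the limit. Its 1 probe set, 1449135_at, had 5.99 and 7.33 in knockout-labelled cells without LIF and 6.43 and 7.77 in knockout-labelled cells with LIF, against 6.45 and 6.36 in J1 cells without LIF and 6.24 and 6.71 in J1 cells with LIF. The 2 knockout-labelled groups each spread by 1.34, more than the averaged difference of 0.44 (SE 0.43). Of the 12 endothelial genes listed beside it, 11 passed the filter and 7 had a mean of at least 6. limma called 0 of the 11 for genotype, with 1 at an unadjusted p under 0.05, 5 averaged lower and 6 higher in the knockout-labelled arrays, and their median difference was 0.09. Endothelial Vwf and Erg were near background, at means of 4.19 and 3.85.

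Withdrawal of LIF gave higher Sox4 values on average at all 6 probe sets above background, with differences, without minus with LIF, of 0.27 to 0.70 and a median of 0.54. None was called. Leaving out 1 array at a time kept all 6 above 0 but gave 0.039 to 1.06 for 1419156_at, lowest without the second knockout-labelled array with LIF. It gave 0.076 to 0.47 for 1455867_at, lowest without the first knockout-labelled array with LIF, and 0.36 to 1.04 for 1419155_a_at, lowest without the second knockout-labelled array without LIF. For 1433575_at the range was 0.31 to 0.74, lowest without the second J1 array with LIF. For 1433575_at the difference was 0.70 (SE 0.38) in knockout-labelled cells, where both arrays without LIF lay above both with LIF. It was 0.35 (SE 0.38) in J1 cells, where they overlapped. For 1449370_at it was 0.65 (SE 0.20) on average, with an unadjusted p of 0.0182 and an adjusted p of 1.00 by limma. In knockout-labelled cells that probe set had 7.11 and 7.36 without LIF, against 6.58 and 6.10 with LIF. In J1 cells it had 7.37 and 7.65 without LIF, against 7.21 and 7.02 with LIF. The groups did not overlap in either line.

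Sox11 1436790_a_at differed by 0.66 (SE 0.58) in knockout-labelled cells and 0.33 (SE 0.58) in J1 cells, with overlap in both. Over its 5 probe sets above background the averaged differences ran from -0.02 to 0.50. The values for the other genes were 0.04 (SE 0.20) for Sox12, 0.18 (SE 0.32) for Sox13, -0.13 (SE 0.26) for Sox15 and -0.25 (SE 0.43) for Sox18. Sox3 had -0.14 (SE 0.21) at 1435192_at and 0.82 (SE 0.49) at 1450485_at. Without overlap, 5 of 17 probe sets were higher without LIF in knockout-labelled cells, against 13.5% of all probe sets, and 1 of 17 in J1 cells, against 13.2%. In J1 cells 2 of 17 were lower without LIF, against 14.4% of all. Over all 24 SOX probe sets, 7 were higher without LIF in knockout-labelled cells. In J1 cells 1 of the 24 was higher and 5 were lower without LIF. These comparisons share arrays with those between the lines.

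**Figure D3:**
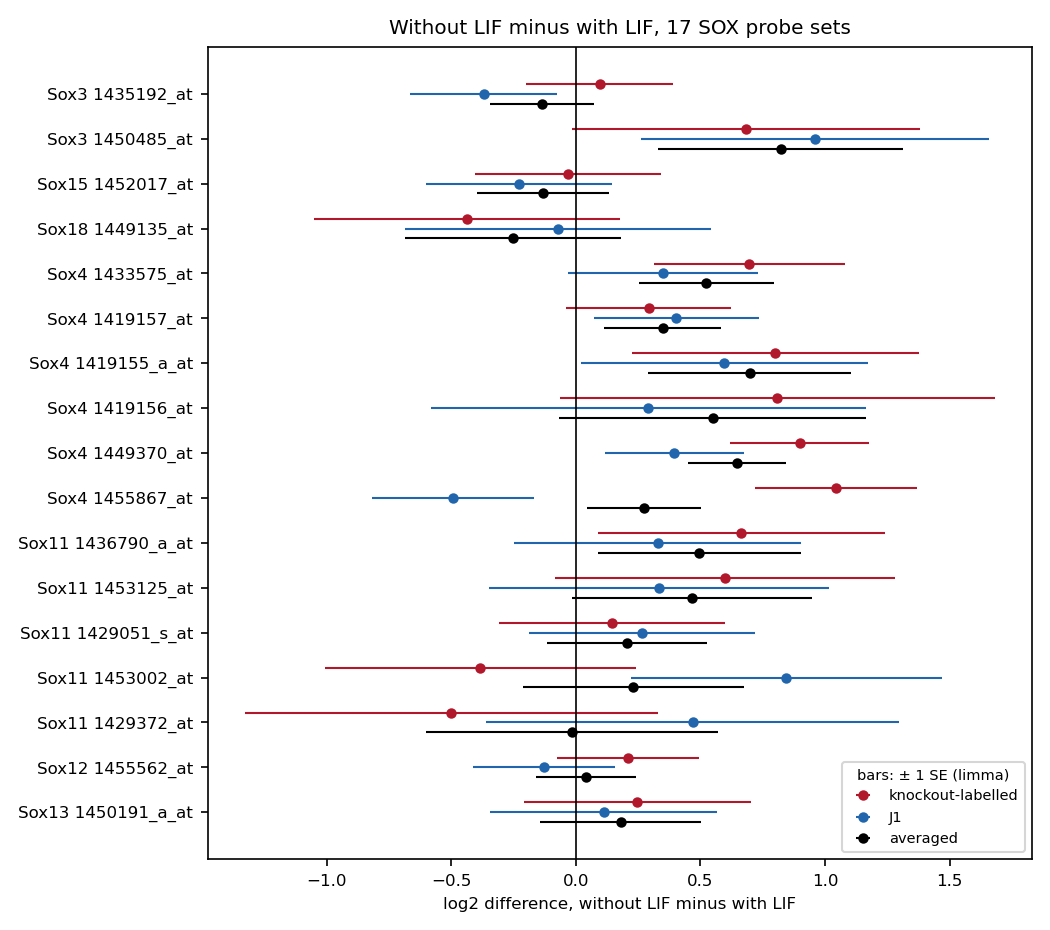
Log2 difference, without LIF minus with LIF (x), for the same 17 SOX probe sets (y), in knockout-labelled cells, in J1 cells and averaged. Points are limma estimates and bars 1 SE to each side. The averaged points of all 6 Sox4 probe sets lie above 0, and Sox4 1455867_at has opposite signs in the lines, 1.04 in knockout-labelled and -0.49 in J1 cells.

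The array-by-array pattern of Sox4 was close to that of Sox11. Among 4323 other genes whose log2 mean reached 8 and whose SD over arrays reached 0.2, each by its probe set of highest mean, those most like Sox4 1433575_at over the 8 arrays were Rimklb (Pearson r = 0.991), Fzd2 (0.974) and Sox11 (0.968). Those most like Sox11 were Car2 (0.982), Fzd2 (0.977) and Wnk1 (0.976), and 7 genes were more like it than Sox4. The genes most like Sox12 were Trappc13 (0.928), Prss41 (0.926) and Eef1a2 (0.925). For Sox13 they were Tasor2 (0.977), Zfp236 (0.975) and Ttc30a1 (0.972), and for Sox15 Slc30a4 (0.951), Accsl (0.947) and Fam126a (0.941). Sox12 was much less like Sox4 (0.455) than Sox11 was. These values describe 8 arrays that share groups and the split into first and second arrays.

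**Figure D4:**
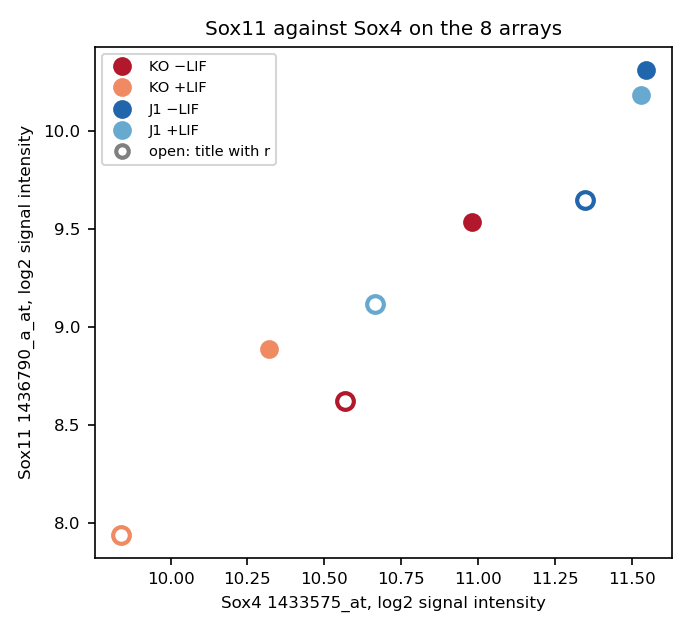
Log2 signal intensity of Sox11 1436790_a_at (y) against Sox4 1433575_at (x) on the 8 arrays, coloured by group, with open points for second arrays. The first J1 arrays are highest on both axes and the second knockout-labelled array with LIF lowest, at 9.84 for Sox4 and 7.94 for Sox11.

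The summed signal of the listed markers of fibroblasts or feeder cells was also highest in the first J1 arrays. All 12 listed genes passed the filter, none was at 0, and Lum, Dcn and Postn were near background. For genotype limma called 0 of them, with 1 at an unadjusted p under 0.05, and 9 averaged lower and 3 higher in the knockout-labelled arrays. Their summed signal was 11187 and 8112 in knockout-labelled cells without LIF and 13350 and 9749 in knockout-labelled cells with LIF. In J1 cells it was 24445 and 8441 without LIF and 26659 and 10776 with LIF, so the first J1 arrays stood apart in this sum. The sum weighs genes of high signal most and does not speak for all 12. In J1 cells with LIF, first and second array, Vim had log2 signals of 13.6 and 12.1. Acta2 had 12.2 and 9.9 there, and Tagln 12.2 and 7.5. Between the second arrays, 1 array against 1 in each medium, Sox4 1433575_at differed by -0.78 without LIF and -0.83 with LIF, knockout minus J1. Sox11 1436790_a_at differed there by -1.02 without LIF and -1.18 with LIF. In the first arrays the Sox4 differences were -0.57 without LIF and -1.21 with LIF, and those of Sox11 -0.78 without LIF and -1.30 with LIF. The part of these markers in the Sox4 and Sox11 values was not tested. In bulk RNA, fewer cells expressing a gene and less RNA per cell cannot be told apart.

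Genes near the SOX factors in function were read from gene lists, each gene by its probe set of highest mean. These lists were chosen with earlier results of these data known, so their counts are no test of a shared direction. Among 15 early neuronal genes and targets of group C factors, limma called 0 for genotype in either direction, with 2 at an unadjusted p under 0.05. Of the 15, 13 had a lower and 2 a higher averaged value in the knockout-labelled arrays, with a median of -0.31, against 47.9% of all probe sets below 0 and a median of 0.02. Gap43, a growth cone protein, had 7.56 and 7.43 in knockout-labelled cells without LIF, 8.64 and 7.92 in those with LIF, 9.12 and 8.65 in J1 cells without LIF, and 9.59 and 9.47 in J1 cells with LIF. All 4 knockout-labelled arrays lay below all 4 J1 arrays, as 1.74% of all probe sets did (difference -1.32, SE 0.23, adjusted p = 0.652 by limma). The values were -0.79 (SE 0.40) for Marcks, an actin-binding membrane protein, and -0.63 (SE 0.22) for the adhesion molecule Ncam1. For LIF withdrawal 8 of the 15 were lower and 7 higher without LIF, with 0 called and 2 at an unadjusted p under 0.05. Gap43 was 1 of these 2, at -0.71 (SE 0.23), without minus with LIF.

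Of 16 neural progenitor genes and SOX partner factors, 12 had a lower and 4 a higher averaged value in the knockout-labelled arrays, with a median of -0.18. limma called 0, and 2 had an unadjusted p under 0.05. These 2 were Pax6, a neural transcription factor, at -0.56 (SE 0.21), and Pou3f2, near background, at -0.93 (SE 0.26). Pou3f1, a POU factor of the primed epiblast, differed by -0.61 (SE 0.36, unadjusted p = 0.140 by limma). Pou3f3 differed by -1.40 (SE 0.68, unadjusted p = 0.0880 by limma). For LIF withdrawal 7 of the 16 were lower and 9 higher without LIF, with 0 called and 3 at an unadjusted p under 0.05. Otx2 and Zic2, both transcription factors of the epiblast and the early neural plate, differed by 1.18 (SE 0.38) and 0.95 (SE 0.29). The 12 other SOX genes had a median genotype difference of -0.03, with 6 lower and 6 higher, 0 called and 2 at an unadjusted p under 0.05.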

How the data were processed

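The 8 arrays gave 45101 probe sets. The authors deposited 1 intensity for each probe set on a linear scale. GCRMA is listed in the submitters' processing notes, but its role is not. Trimmed by 2% at each end, every column averaged 500.003, and no label says how the values were scaled. No detection value was used, so low values hold an unknown share of background, and with 2 arrays a group the precision is low.

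The 64 control probe sets were left out. Symbols came from the platform annotation and were updated through Entrez identifiers in a RefSeq table of GRCm38.p6, which changed 0. Of the remaining 45037, 34945 have 1 symbol, 932 several and 9160 none listed here.

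Intensities were taken to log2 with no pseudocount. The filter required a log2 of 4 or more on 2 or more arrays and left 43439 probe sets. A model with a mean for each group was fitted to the 8 arrays together by limma 3.58.1 (R 4.3.3), and p-values were Benjamini-Hochberg adjusted within each of 7 contrasts. The fit was run on simulated data with independent noise on each array and no shared difference between first and second arrays. That run checks the code and cannot show whether the model suits these arrays. Plots used matplotlib 3.10.9 and Python 3.11.15.

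The members and gene lists were chosen with earlier results of these data known. Probe sets of mean log2 at least 6 were described singly. In each list at most 4 genes of mean at least 6 and largest averaged change were eligible to be named, and the 3 genes of highest Pearson correlation with each member of mean at least 8. Vwf, Erg, Lum, Dcn and Postn were named after their values were seen, as near-background markers. Pou3f2 was named for its unadjusted p, and Pou5f1, Nanog, Sox2 and Zfp42 to check the cells. Alternatives covered the filter, normalization, pseudocount, variance prior, arrays fitted, probe set per gene, the letter r as a block, and leaving out each array.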

Additional observations from a re-analysis of the deposited data

Results flagged for a closer look

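For 3 probe sets, withdrawal of LIF moved both arrays one way in knockout-labelled cells and both the other way in J1 cells. The share of all probe sets that did so was not computed, so whether 3 is many cannot be said. Singly, 13.5% of all probe sets were higher without LIF in knockout-labelled cells and 14.4% lower without LIF in J1 cells, without overlap. The interaction itself was tested with limma and was not called for any of them (adjusted p = 1.00 each). Sox4 1455867_at had an interaction of 1.54 (SE 0.46, unadjusted p = 0.0168). It was higher without LIF in knockout-labelled cells and lower without LIF in J1 cells. The other 5 Sox4 probe sets above background were higher without LIF in both lines. Sox11 1431225_at had an interaction of 3.77 (SE 0.83, unadjusted p = 0.00465) at a mean log2 of 5.85. Sox12 1439754_at had 1.81 (SE 1.08, unadjusted p = 0.149) at a mean log2 of 5.58. Both of these lie near background.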

How the results depend on the processing

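No SOX probe set was called under any alternative, and over all probe sets only the trended and robust prior called any, 1 for the averaged genotype difference. Of 855 recomputed changes of single SOX probe sets, 816 kept their direction. The filter, the variance prior, the replicate block and fitting only the compared groups cannot move an estimate. A part of the 816 was therefore fixed in advance. The averaged genotype difference of Sox4 1433575_at ran from -1.06 to -0.63 over the arrays left out and that of Sox11 1436790_a_at from -1.33 to -0.80. Whether the letter r pairs arrays is unsettled. Second-minus-first differences correlated between groups at 0.0496 to 0.198 over all probe sets tested, and at 0.318 to 0.771 over the 6516 of mean log2 at least 10. Since not every pair of groups passed 0.1 over all probe sets, the fit without it was kept. As a replicate block the letter r cannot move the differences of these 2 probe sets, since each group has 1 array of each kind. They were -0.85 (SE 0.17, adjusted p = 0.582 by limma) and -1.07 (SE 0.14, adjusted p = 0.568 by limma), and the block changed no call.

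Changes of direction touched small or low values. Averaging its 2 probe sets gave Sox3 0.47 for genotype and 0.34 for LIF. Centring arrays on their median gave -0.071 for genotype in Sox13 and -0.026 in Sox15. For LIF in Sox11 1429372_at the values were 0.029 with quantile normalization, 0.034 with median centring and 0.035 with a pseudocount of 32. Leaving out single arrays gave genotype ranges of -0.22 to 0.23 for Sox13 and -0.15 to 0.25 for Sox15. The averaged LIF ranges were -0.051 to 0.46 for Sox11 1429051_s_at, -0.52 to 0.49 for 1429372_at, -0.21 to 0.67 for 1453002_at, -0.29 to 0.016 for Sox3 1435192_at, -0.59 to 0.082 for Sox18, -0.049 to 0.41 for Sox13, -0.33 to 0.067 for Sox15 and -0.066 to 0.15 for Sox12.

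For single comparisons, chosen after the data were seen, the ranges were -0.019 to 0.18 for Sox4 1455867_at and -0.047 to 1.28 for Sox11 1431225_at between the lines without LIF. For LIF in J1 cells they were -0.082 to 0.78 for Sox4 1433575_at and -0.20 to 0.86 for Sox11 1436790_a_at, and for the interaction -0.087 to 0.78 and -0.20 to 0.87. The arrays were left out with the lone remaining array of a group assumed to vary like the others. The cause of these changes was not tested.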

Other observations

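Among the other SOX genes, Sox17, a group F factor of the endoderm, gave values at 1429177_x_at of 7.19 and 7.07 in knockout-labelled cells without LIF and 6.37 and 6.73 in those with LIF. In J1 cells they were 5.82 and 6.19 without LIF and 6.10 and 5.88 with LIF. All 4 knockout-labelled arrays lay above all 4 J1 arrays, and the share of all probe sets that did so was not computed. The averaged difference was 0.84 (SE 0.19), with an unadjusted p of 0.00487 and an adjusted p of 0.754 by limma. The suffix _x_at marks a probe set with probes that can match other transcripts. The second Sox17 probe set, 1421657_a_at, ran from 3.35 to 7.43 over the 8 arrays. Its genotype difference is not given here, so the direction for Sox17 rests on 1429177_x_at alone. Sox7, also of group F, differed by 0.80 (SE 0.29, adjusted p = 0.917) at a mean log2 of 6.34, while Sox9, a factor of cartilage and neural crest, differed most among the other SOX genes of mean log2 at least 6, by -0.90 (SE 0.67, adjusted p = 0.985). Of the endothelial genes, the adhesion gene Esam differed by 0.71 (SE 0.17, adjusted p = 0.794) and Cdh5, the junctional cadherin, by 0.51 (SE 0.35), while the VEGF receptors Flt1 and Kdr differed by -0.44 (SE 0.27) and -0.24 (SE 0.38).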
